A study of Mus musculus with 13 samples.

Results

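The genes described here are the potassium channel genes of the mouse count table. They were chosen by symbol, as every row whose gene symbol starts with Kcn followed by letters and a number. The rule found 95 rows of 35972, with 93 distinct symbols, because Kcnb2 and Kcnh8 each have a further row under another identifier. All 95 rows carry the symbol of a channel subunit or of an auxiliary subunit, and none is a non-coding or antisense gene by its symbol. The study asked which genes Fezf2, a zinc-finger transcription factor of deep-layer cortical projection neurons, regulates as the neocortex develops. Its RNA comes from 8 libraries of sorted neocortical cells and from 2 libraries of whole neocortex. For the sorted cells, CD-1 mice were electroporated in utero with plasmids at E16.5, an embryonic day late in cortical neurogenesis, and cells were collected by fluorescence at postnatal day 3. By their titles, 5 libraries received Fezf2 + GFP (labelled Fezf2 over-expression) and 3 received GFP alone (labelled Gfp control), so all 8 carry GFP. The sources used here do not give the promoter of these plasmids. The neocortex pair comes from C57BL6/J mice at postnatal day 0. One library is labelled Fezf2 knockout, made by removing a floxed Fezf2 allele from progenitors with Emx1-cre, and one is labelled wild type. The titles, Emx-cre KO and Emx-cre WT, both name the cre. Emx1-cre acts in the dorsal telencephalic lineage, so cells of other origins in that tissue keep the gene. Nothing says whether replicates come from separate animals, so p-values measure the spread between these libraries, which may be technical.

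Potassium channels let potassium leave or enter the cell and set its resting potential, the shape of the action potential and the rate of firing. Voltage-gated Kv channels open on depolarisation, SK and BK channels also read calcium, inward rectifiers (Kir) hold the membrane near the potassium equilibrium, and tandem-pore K2P channels carry leak current. Auxiliary subunits change their gating and trafficking: KCNIP proteins bind Kv4 channels, KCNAB proteins bind Kv1, KCNMB proteins bind BK, and KCNE proteins bind several pores. In the postnatal cortex most of these genes are neuronal, while Kcnj10 (Kir4.1) and its partner Kcnj16 (Kir5.1) are best known from astrocytes and Kcnj8 (Kir6.1) from pericytes.

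Depth limited what could be seen. The sorted-cell libraries hold 3245932 to 5801839 counts, against 17856211 in the library labelled knockout and 11818437 in wild type. Levels below are CPM, the counts scaled to a common library size with TMM factors. Fezf2 itself stood at 124 ± 28.7 CPM (SD, n = 5) in the Fezf2 + GFP libraries and 8.07 ± 4.28 CPM (SD, n = 3) with GFP, but at 53.5 CPM in the library labelled knockout and 51.4 CPM in wild type. That last pair shows no loss of Fezf2 counts in the library labelled knockout. Counts over a whole gene cannot show whether a floxed part of it was removed. Every direction given below for that library rests on its label alone. Markers of cortical glutamatergic neurons were present in all libraries, and markers of astrocytes varied among the sorted cells. The 12 astrocyte markers summed to 795, 2670, 1280, 3703 and 2591 CPM in Fezf2 replicates 1 to 5 and to 1338, 1002 and 963 CPM in GFP replicates 1 to 3. Over the same libraries the 8 glutamatergic markers summed to 3485, 2179, 2328, 1283 and 1781 CPM, and to 2794, 2814 and 2661 CPM. Fezf2 replicates 2, 4 and 5 were thus highest for astrocyte genes, and replicate 4 was also the lowest for glutamatergic ones. The same 3 libraries were highest in the summed markers of other cells: radial glia (6542 to 9280 CPM, against 3845 to 5013 CPM in the other 5 libraries), the oligodendrocyte lineage (960 to 1513 against 576 to 758 CPM), cycling cells (564 to 671 against 255 to 375 CPM) and endothelial cells and pericytes (102 to 187 against 46.6 to 65.0 CPM).

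Of the 95 rows, 58 had enough counts to be tested in the sorted cells, which is 61.1% against 38.2% of all genes. In the neocortex pair 60 rows reached 5 CPM in at least 1 library. The sets share 55 rows, 3 rows were in the sorted set only, 5 in the neocortex set only, and 32 in neither. Among those 32 were most of the KCNE family, most K2P genes and many silent Kv subunits, and 2 of the 95 rows had no count in any library.

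Per kilobase of gene length, the sorted cells had their highest channel levels in a regulator of Kv4 and a glial Kir channel. Over all 8 sorted libraries, and among the members reported here, the order of level per kilobase began with Kcnip3 at 31.4 ± 13.5 CPM per kb, Kcnj10 at 25.1 ± 17.1, Kcnd3 at 15.4 ± 3.25 and Kcnma1 at 15.0 ± 5.16 (SD, n = 8). Kcnd2 and Kcnc1 followed, both at 13.1 CPM per kb, and then Kcnk10 at 10.8 CPM per kb. Each of these differed from its neighbour in the order by less than the larger of their SDs. In the GFP libraries alone Kcnip3 stood at 20.1 ± 5.35 and Kcnj10 at 17.4 ± 3.45 CPM per kb (SD, n = 3), which again differ by less than the SD. Kcnd2 and Kcnd3 encode the A-type pores Kv4.2 and Kv4.3, Kcnma1 the BK pore, and Kcnc1 the fast-spiking channel Kv3.1.

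The whole-neocortex libraries had another order. Among the reported members, Kcnd2 led in wild type at 14.9 CPM per kb, followed by Kcnip2 at 14.2, Kcnk2 (TREK-1) at 13.9, Kcnc1 at 13.6 and Kcnd3 at 12.2 CPM per kb. Kcnip3 stood at 7.11 CPM per kb there and Kcnj10 at 5.18. A few members were prominent in one preparation and scarce in the other. Kcnj4 (Kir2.3) stood at 11.9 and 6.95 CPM per kb in the neocortex pair and at 0.391 ± 0.394 over the sorted libraries (SD, n = 8). The K2P gene Kcnk9 (TASK-3) was at 20.8 and 9.55 in the pair, against 1.56 ± 1.11 in sorted cells. Kcnj13 (Kir7.1) went the other way, with 1 count in each neocortex library and 6.27 ± 3.77 CPM per kb in sorted cells. In the RefSeq table Kcnj13 overlaps Gigyf2, and the strand setting of the counting is not given, so reads of these genes may be shared. Whether reads of Gigyf2 were counted to Kcnj13 was not examined. The preparations differ in strain, age, sorting, kit and depth, and no test was made between them. Mitochondrially encoded genes held 21.0 to 27.1% of counts in the sorted libraries and 0.0% in the neocortex pair. CPM of the 2 preparations thus have different bases.

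**Figure D1:**
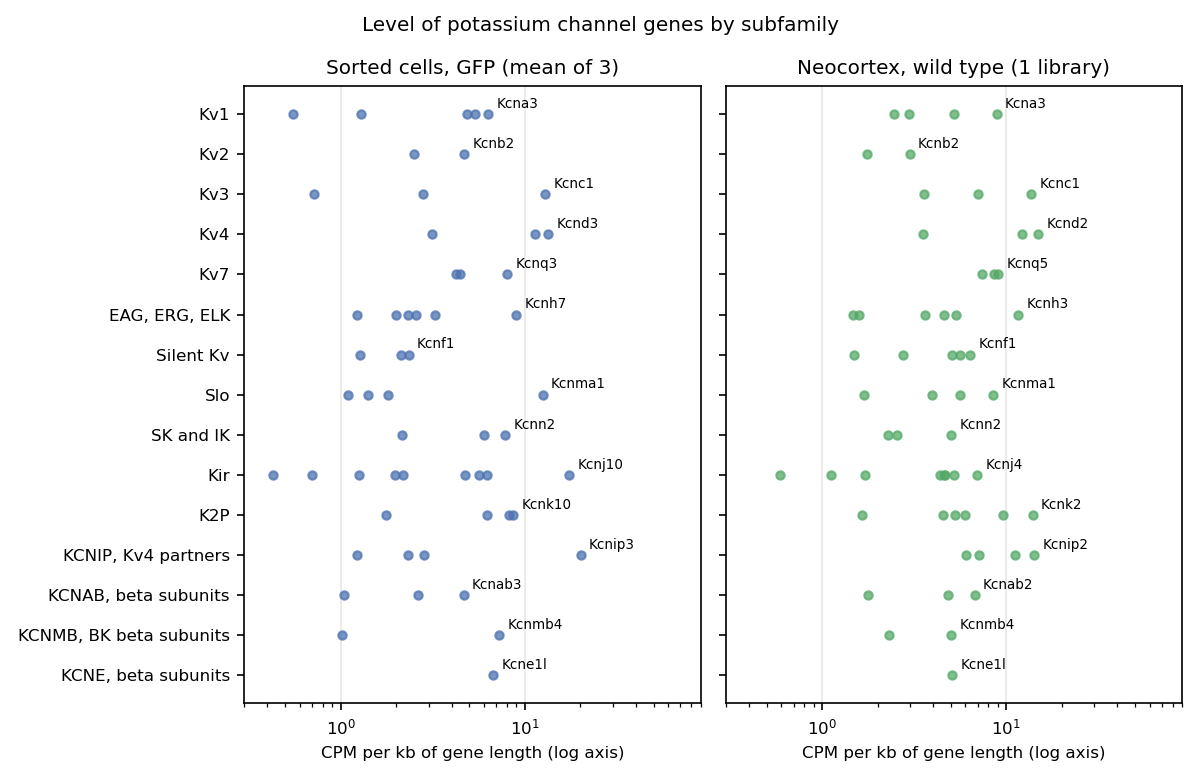
Level of each potassium channel gene, in CPM per kb of gene length on a log axis, by subfamily; left, mean of the 3 GFP libraries for 55 of the 58 tested rows; right, the wild-type neocortex library for 57 of the 60 rows at 5 CPM or more in either neocortex library. The highest plotted gene of each subfamily is named: Kcnip3 (20.1) leads in sorted cells and Kcnd2 (14.9) in neocortex.

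By subfamily, the summed level per kilobase in GFP cells was spread widely. Kir genes made up 14.1% ± 1.5 of it, Kv7 11.4% ± 0.819, Kv4 9.36% ± 0.605, K2P 9.10% ± 1.05 and KCNIP 8.87% ± 1.55 (SD, n = 3). Silent Kv subunits, which form no channel alone and modify Kv2, made up 2.64% ± 0.583 in GFP cells and 6.45% in wild-type neocortex. The KCNIP share was 9.0, 17.2, 9.93, 17.7 and 13.4% in Fezf2 replicates 1 to 5, against 10.6, 8.39 and 7.61% in the GFP replicates. The highest shares fell in Fezf2 replicates 2 and 4, and the groups overlap.

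With added Fezf2, no potassium channel gene passed the test among those with enough counts. Of 58 tested members, 0 were higher and 0 lower at an adjusted p under 0.05 (edgeR quasi-likelihood test, Benjamini-Hochberg over 13754 genes), where 0.00727% of all genes were called higher and 0.00727% lower. At an unadjusted p under 0.05, 3 members were higher (Kcnip3, Kcnip1 and Kcnk10) and 0 lower, against 4.31% of all genes higher and 2.24% lower. In 4 members (Kcnip1, Kcnk10, Kcnd2 and Kcnj6) every Fezf2 library lay above every GFP library, and in 0 tested members below. For all tested genes those shares were 2.25% and 2.46%. The members' median log2 fold change was 0.08, with 36 above 0 and 22 below, and the median of all tested genes was 0.02. Precision was lower for channels than for other genes: the median SE was 0.387 against 0.301, and the median level 12.4 against 20.8 CPM. DESeq2 also called 0 members. At an unadjusted p under 0.05 it had 3 of 91 members higher and 0 lower, against 2.62% of 26328 genes higher. With no filter on low counts edgeR called 2 members, Kcnip3 and Kcnj10, both higher, where 0.3% of 26328 genes were called higher and 0.144% lower. Leaving out Fezf2 replicate 1 gave 6 higher and 3 lower of 57 members at an unadjusted edgeR p under 0.05, against 6.43% of all genes higher. The share of all genes lower was not counted in that setting, so the 3 have no background. Leaving out Fezf2 replicate 3 gave 5 and 0, against 5.23% of all genes higher. None of these members passed the adjusted limit.

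**Figure D2:**
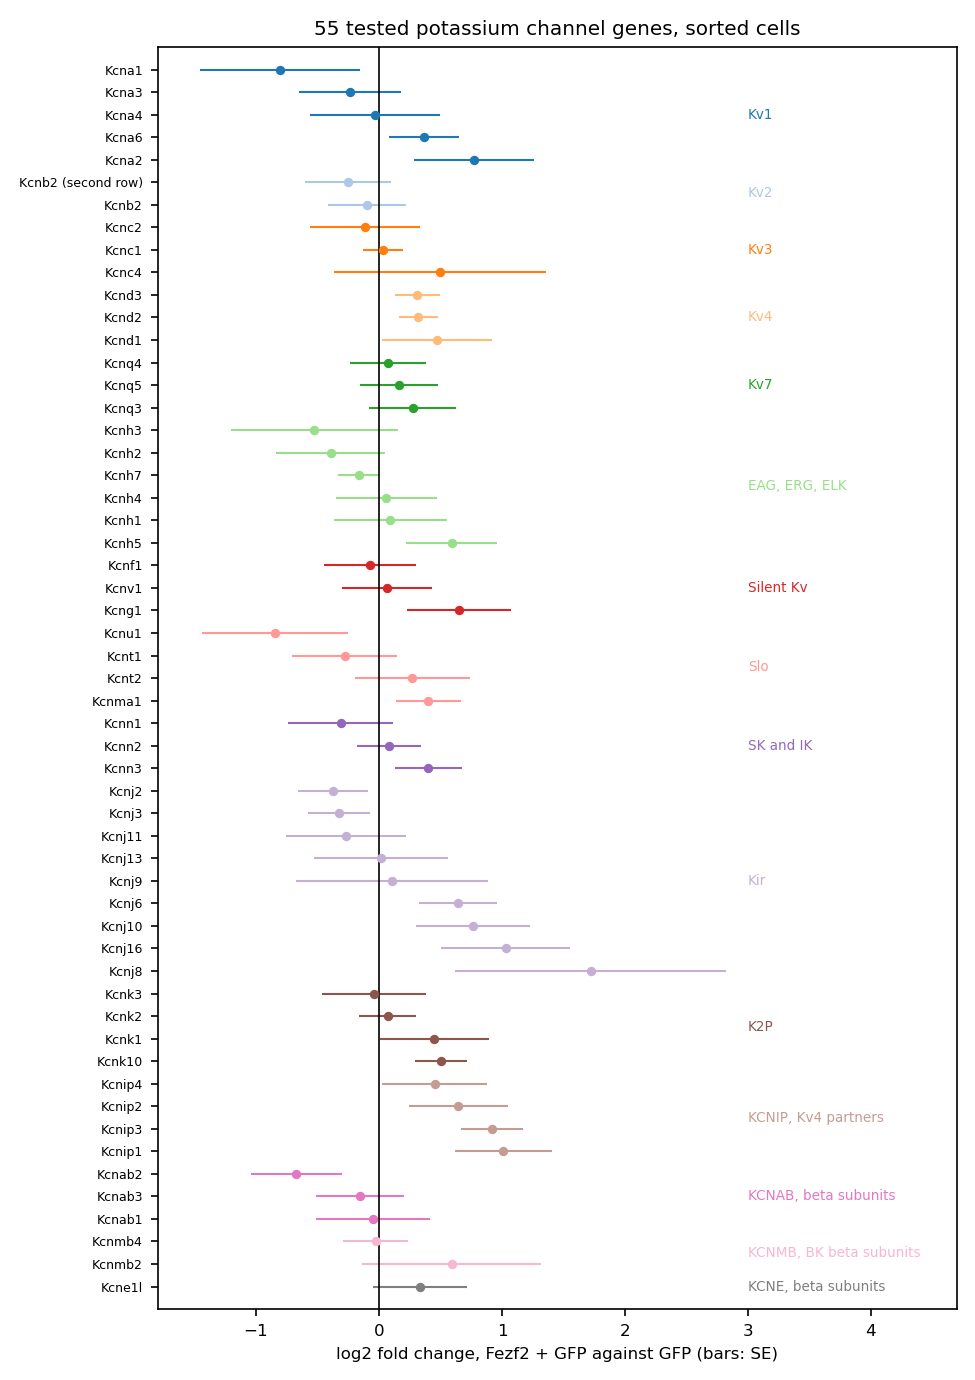
Log2 fold change of 55 of the 58 tested members, Fezf2 + GFP (5 libraries) against GFP (3 libraries), ordered by subfamily; points are edgeR estimates and bars 1 SE. All 4 KCNIP and all 3 Kv4 genes lie above 0 and all 3 KCNAB genes below, Kcnab1 and Kcnab3 by less than 1 SE. None passed the adjusted limit.

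The KCNIP genes, whose calcium-binding products sit on Kv4 channels, lay above 0 in 4 of 4 cases (median log2 fold change 0.78) and none passed. Kcnip3, also known as DREAM or calsenilin, had the smallest p of all members. It stood at 97.9, 167, 89.0, 192 and 133 CPM in Fezf2 replicates 1 to 5, and at 93.0, 56.7 and 64.9 CPM in GFP replicates 1 to 3. Fezf2 replicates 1, 2, 4 and 5 were above all GFP libraries, replicate 1 only just, while replicate 3 lay below GFP replicate 1, so the groups overlap. Its log2 fold change was 0.92 (SE 0.25, adjusted p = 0.719 with edgeR, or 0.0026 with no filter on low counts). The 3 Fezf2 libraries highest for Kcnip3 are the 3 highest for the markers of astrocytes, radial glia, the oligodendrocyte lineage, cycling cells and vessels, while replicate 1, also above GFP, is the lowest of all 8 for astrocyte markers. The part of these cells in the difference was not tested.

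Kcnip1 was less abundant and did not overlap between groups. It stood at 8.85, 9.23, 12.9, 25.1 and 20.7 CPM in Fezf2 replicates 1 to 5 and at 7.21, 8.53 and 7.08 CPM in GFP replicates 1 to 3. Fezf2 replicates 4 and 5 were far above the rest, and replicates 1 and 2 only just above GFP replicate 2. The log2 fold change was 1.01 (SE 0.39; edgeR gave an adjusted p of 0.729). The 8 interneuron markers summed to 119, 193, 304, 263 and 297 CPM in Fezf2 replicates 1 to 5. With GFP they summed to 154, 218 and 161 CPM. Of these markers 6 lay above 0 and 2 below (median log2 fold change 0.39, none passed). Their part in the Kcnip1 values was not tested. Kcnmb1, a BK beta subunit gene, overlaps Kcnip1 in RefSeq and reached at most 1.16 CPM in the sorted cells. RefSeq also lists non-coding genes that overlap Kcnip1, Kcnip3, Kcnk10, Kcnd2 and Kcnd3, so reads of these may be shared. Kcnip2, the main cardiac KCNIP, was at 22.7 CPM in Fezf2 replicate 2 and between 8.22 and 12.1 CPM in the other 4, with GFP values of 9.5, 10.0 and 4.72 CPM. Its log2 fold change of 0.65 (SE 0.40) and that of Kcnip4, 0.45 (SE 0.43), did not pass.

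Their Kv4 pores showed smaller differences in the same direction. Kcnd2 (Kv4.2) was the steadiest: 71.4, 79.7, 65.1, 73.7 and 77.2 CPM with Fezf2 and 59.3, 59.95 and 56.9 CPM with GFP. Every Fezf2 value was above every GFP value, yet the log2 fold change was only 0.32 (SE 0.16; edgeR gave an adjusted p of 0.776). Kcnd3 (Kv4.3) stood at 135, 179, 120, 202 and 164 CPM against 140, 108 and 138 CPM. Replicates 1 and 3 of the Fezf2 group fell within the GFP range, and the log2 fold change was 0.31 (SE 0.18). Kcnd1, the least abundant Kv4 gene here, had 0.47 (SE 0.45).

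Kcnk10 (TREK-2), a mechanosensitive and lipid-sensitive leak channel, also separated the groups. Its Fezf2 libraries held 37.7, 36.1, 52.9, 36.4 and 36.9 CPM and its GFP libraries 28.5, 29.1 and 27.1 CPM. Within each group the values were close, apart from the high Fezf2 replicate 3. The log2 fold change was 0.50 (SE 0.21; edgeR gave an adjusted p of 0.729). Its relative Kcnk2 (TREK-1) stood at 31.5 ± 5.39 CPM (SD, n = 5) with Fezf2 and 29.9 ± 6.70 CPM (SD, n = 3) with GFP, and its log2 fold change was 0.07 (SE 0.23). Kcnk1 (TWIK-1), at 0.45 (SE 0.44), ranged from 5.01 to 37.2 CPM within the Fezf2 group.

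**Figure D3:**
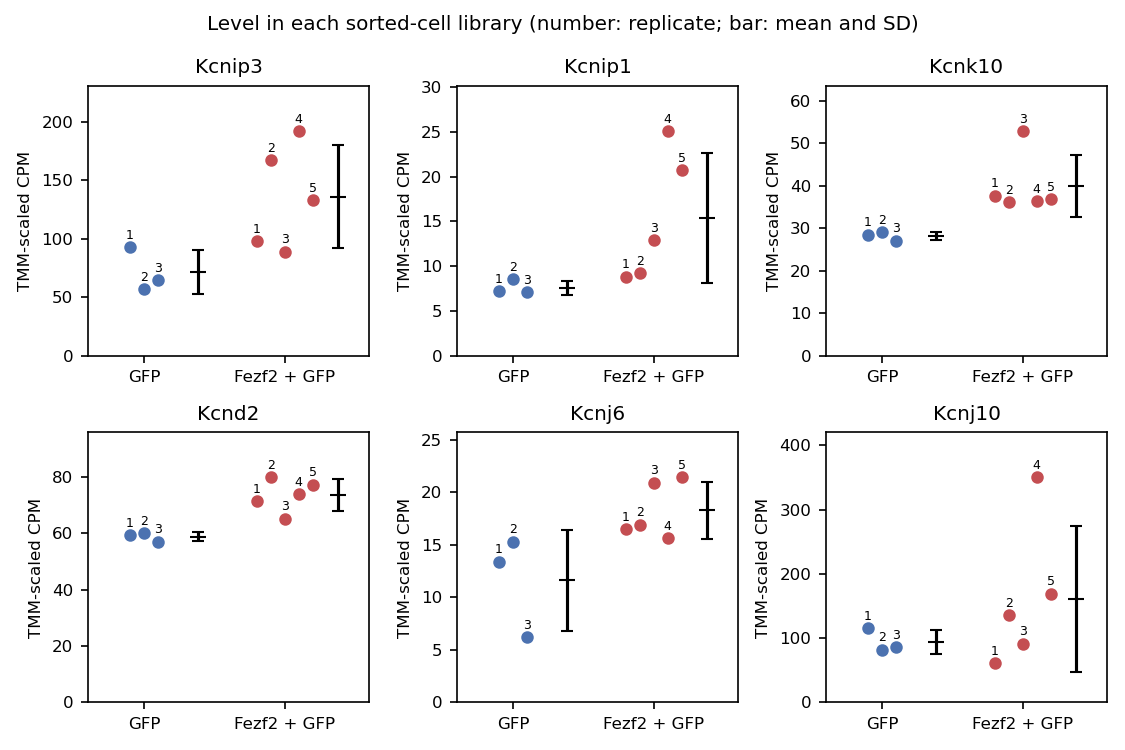
TMM-scaled CPM of 6 members in each sorted-cell library, GFP in blue and Fezf2 + GFP in red, with the replicate number above each point and the mean and SD beside it. Kcnip1 and Kcnj6 separate the groups by narrow gaps. Kcnk10 (36.1 against 29.1 CPM at the closest) and Kcnd2 (65.1 against 59.95 CPM) separate them by wider ones. Kcnip3 overlaps through Fezf2 replicate 3, and Kcnj10 reaches 350 CPM in Fezf2 replicate 4 alone.

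Among inward rectifiers 6 of 9 tested members lay above 0. Kcnj6 (GIRK2), a pore opened by G proteins, stood at 16.51, 16.9, 20.9, 15.6 and 21.4 CPM with Fezf2 and 13.4, 15.3 and 6.19 CPM with GFP. The groups do not overlap, but Fezf2 replicate 4 lay only just above GFP replicate 2, and the log2 fold change was 0.64 (SE 0.32; edgeR gave an adjusted p of 0.778). Of the other GIRK subunits, Kcnj3 (GIRK1) had -0.33 (SE 0.25) and Kcnj9 (GIRK3) 0.10 (SE 0.78), and their differences from Kcnj6 were not tested. Kcnj5 (GIRK4) was too low to test, at 16.51, 0.528, 0.705, 0.867 and 2.84 CPM with Fezf2 and 2.11, 0.753 and 0.590 CPM with GFP. Its high value lay in Fezf2 replicate 1, and the groups overlap. Kcnj2 (Kir2.1), which stabilises the resting potential, had -0.37 (SE 0.28).

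Kcnj10, which takes up extracellular potassium into astrocytes, was the most uneven abundant member. It stood at 60.7, 136, 91.2, 350 and 169 CPM in Fezf2 replicates 1 to 5 and at 116, 82.3 and 85.5 CPM in GFP replicates 1 to 3. Fezf2 replicate 4 was the highest library and Fezf2 replicate 1 the lowest of all 8, so the groups overlap on both sides. The log2 fold change was 0.76 (SE 0.46; edgeR gave an adjusted p of 0.813, or 0.0213 with no filter on low counts). Kcnj16, its channel partner, had 3.54, 17.7, 5.17, 15.9 and 8.52 CPM with Fezf2 and 4.75, 6.52 and 3.54 CPM with GFP. Again Fezf2 replicates 2, 4 and 5 exceeded the GFP range and replicates 1 and 3 did not. The log2 fold change was 1.03 (SE 0.52) and did not pass. Of 12 astrocyte markers 11 were tested, all 11 lay above 0 (median log2 fold change 0.70, none passed), and the library highest in their sum, Fezf2 replicate 4, is the highest for Kcnj10. In sorted pools, more astrocytes and more RNA per astrocyte cannot be told apart, and the part of these markers in the Kir values was not tested.

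Kcnq3, a Kv7 subunit that restrains repetitive firing, varied in another way across the libraries. It stood at 33.3, 32.4, 32.4, 9.24 and 20.1 CPM in Fezf2 replicates 1 to 5 and at 25.5, 21.1 and 16.51 CPM with GFP. Fezf2 replicate 1 was highest and replicate 4 lowest, the same libraries as for the glutamatergic markers, and the GFP range lay inside the Fezf2 range. The log2 fold change was 0.27 (SE 0.36). Kcnc1 differed little, with 121 ± 21.3 CPM (SD, n = 5) and 119 ± 8.29 CPM (SD, n = 3) and a log2 fold change of 0.03 (SE 0.16).

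The remaining voltage-gated and calcium-gated members scattered about 0 with wide errors. Kv1 genes had 2 of 5 above 0, from Kcna1 at -0.80 (SE 0.65) to Kcna2 at 0.77 (SE 0.49). Kcna2 ranged from 6.19 to 51.4 CPM within the Fezf2 group, and from 10.8 to 20.8 CPM with GFP. Both rows of Kcnb2 (Kv2.2), a delayed rectifier, lay below 0, at -0.10 (SE 0.32) and -0.25 (SE 0.35). Among EAG, ERG and ELK genes 3 of 6 were above 0, led by Kcnh5 at 0.59 (SE 0.37), and the abundant Kcnh7 (ERG3) had -0.17 (SE 0.16). Kcnma1 had 0.40 (SE 0.26), Kcnn3 (SK3) 0.40 (SE 0.27), Kcnn2 (SK2) 0.08 (SE 0.26) and the silent subunit Kcng1 0.65 (SE 0.42). The lowest log2 fold change of all was that of Kcnu1, -0.84 (SE 0.59), at 2.19 ± 0.906 CPM with Fezf2 (SD, n = 5) and 4.0 ± 1.18 CPM with GFP (SD, n = 3).

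Other auxiliary subunits did not behave as one group. All 3 KCNAB genes, which modify Kv1 gating, lay below 0, and none passed. Kcnab1 had -0.05 (SE 0.46) and Kcnab3 -0.155 (SE 0.36), and both changed sign when 1 library was left out. Kcnab2 stood at 13.6, 5.28, 10.6, 10.7 and 6.2 CPM with Fezf2 and at 19.5, 10.0 and 14.4 CPM with GFP. Fezf2 replicates 2 and 5 were lowest and the groups overlap, with a log2 fold change of -0.67 (SE 0.37; edgeR gave an adjusted p of 0.796). Kcnmb4, the neuronal BK beta subunit, had -0.03 (SE 0.26), and Kcne1l, the only tested KCNE gene, 0.33 (SE 0.38). The 37 untested members averaged at most 3.11 CPM over the sorted libraries, and the filter on low counts left them out of the main test. In 1 of them, the silent subunit Kcng3, every Fezf2 library lay below every GFP library. It stood at 0.295, 0, 1.41, 1.16 and 0.775 CPM against 3.52, 2.01 and 2.36 CPM, from 50 counts over all 8 libraries. The share of all untested genes lying so was not counted, and among tested genes it was 2.46%. The untested members include the microglial K2P gene Kcnk13, at 0 to 3.05 CPM with Fezf2 and 0 to 0.590 CPM with GFP, and Kcne4, at 0 to 1.58 CPM and 0.352 to 0.753 CPM.

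Summed over all 95 rows, channel counts were 1962, 1841, 1937, 1868 and 1872 CPM in Fezf2 replicates 1 to 5 and 1720, 1562 and 1651 CPM in GFP replicates 1 to 3. Every Fezf2 library lay above every GFP library, with means of 1896 ± 51.0 CPM (SD, n = 5) and 1645 ± 79.1 CPM (SD, n = 3), a ratio of 1.15. The ratio was 1.13 on library totals and 1.15 without mitochondrially encoded genes. Without Kcnip3 and Kcnj10, the members highest per kilobase, the sum was 1326 to 1803 CPM with Fezf2 and 1423 to 1511 CPM with GFP, and the groups overlap. The ratio of means was then 1.08. These sums were compared after the values had been seen and carry no test. The 3 Fezf2 libraries lowest in the reduced sum, replicates 2, 4 and 5, are those highest for the astrocyte markers.

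**Figure D4:**
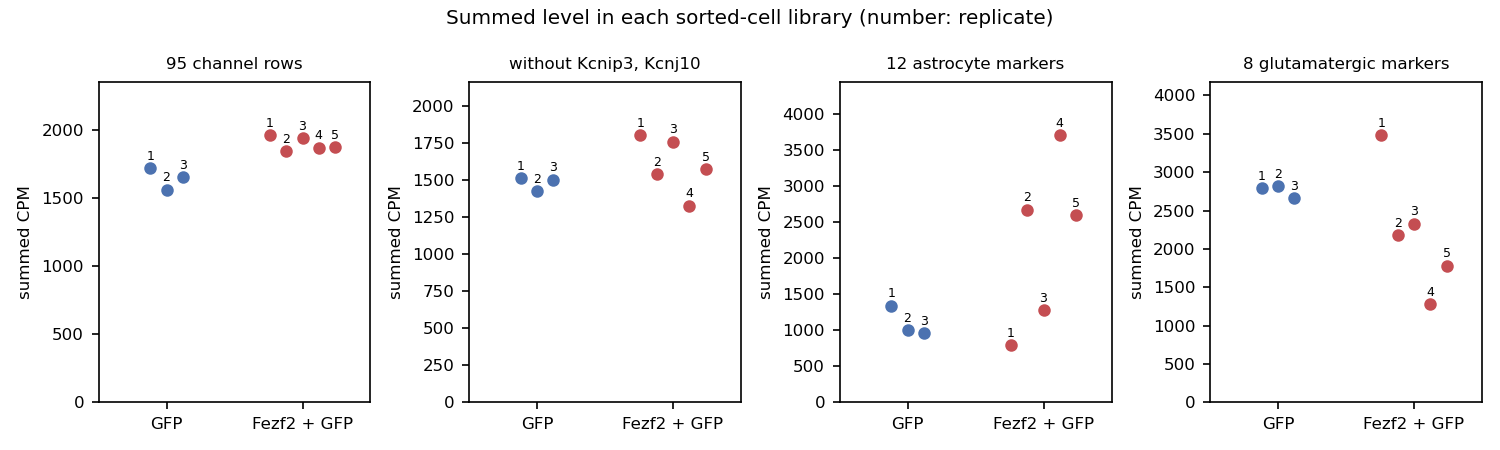
Summed TMM-scaled CPM in each sorted-cell library, with the replicate number above each point, for all 95 channel rows, for those rows without Kcnip3 and Kcnj10, for 12 astrocyte markers and for 8 glutamatergic markers. The sum over all channel rows separates the groups (1841 to 1962 against 1562 to 1720), the reduced sum does not, and Fezf2 replicate 4 is highest for astrocyte and lowest for glutamatergic markers.

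In whole neocortex, the more abundant channel genes differed by 2-fold upward only in the library labelled knockout, and those of low level in both directions. Of the 60 members at 5 CPM or more in either library, 4 (6.67%) were at least 2-fold higher and 0 at least 2-fold lower, where the shares of 11218 genes were 1.01% and 1.32%. With a minimum of 1 CPM, 7 of 75 members (9.33%) were higher and 5 (6.67%) lower, against 2.45% and 2.2% of 14158 genes. The members lower there were Kcne2 (-1.27), both Kcnh8 rows (-1.04 and -1.45), Kcnj16 (-1.06) and Kcnn4 (-2.22), each with 28 counts or fewer in either library. At 1.5-fold 9 were higher and 4 lower, against 4.76% and 6.73% of all genes. The median log2 ratio was 0.14, with 36 above 0 and 24 below, and 0.01 over all genes. There was 1 library per label and so no replicate check. The 95% intervals below are exact binomial ones for counting error, and amplified reads are not separate molecules. The library labelled knockout is also the deeper of the pair.

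Kcnn1 (SK1; ENSMUSG00000002908), a small-conductance channel opened by calcium that shapes the afterhyperpolarisation, stood furthest apart. It had 938 counts in the library labelled knockout and 123 in wild type. These are 52.5 and 10.4 CPM, and their log2 ratio was 2.32 (95% interval 2.06 to 2.62). Per kilobase it moved from 2.56 CPM in wild type, below Kcnn2 (5.00), to 12.9 CPM, above Kcnn2 (7.48). The genes on either side did not share the ratio: Arrdc2 had -0.35 and Ccdc124 0.37. In the sorted cells Kcnn1 stood at 3.24, 6.59, 12.7, 6.07 and 6.46 CPM with Fezf2 and 7.03, 10.8 and 8.55 CPM with GFP. These overlap, and the log2 fold change was -0.31 (SE 0.43; edgeR gave an adjusted p of 0.909).

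Kcnh1 (EAG1), a slowly deactivating Kv channel, had 1024 and 314 counts, or 57.3 and 26.6 CPM, and a log2 ratio of 1.11 (0.926 to 1.30). Kcnk9, a pH-sensitive leak channel of neurons, had 450 and 137 counts, or 25.2 and 11.6 CPM, a log2 ratio of 1.11 (0.841 to 1.41). Per kilobase Kcnk9 was the highest K2P gene in the library labelled knockout, at 20.8 CPM. In sorted cells Kcnh1 had a log2 fold change of 0.09 (SE 0.46), and Kcnk9 was too low to test, at 0.578 to 4.13 CPM with Fezf2 and 0 to 1.77 CPM with GFP. Their RefSeq neighbours stood at 0.22 (Trappc9, beside Kcnk9) and -0.39 (Hhat, beside Kcnh1).

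Kcnj8 (Kir6.1), the pore of the vascular ATP-sensitive channel, had 123 and 29 counts, or 6.89 and 2.45 CPM, a log2 ratio of 1.44 (0.896 to 2.13). Abcc9, its neighbour in the genome and the gene of its regulatory subunit SUR2, stood at 32.3 and 18.4 CPM, a log2 ratio of 0.80. Of the 9 endothelial and pericyte markers, one of them Abcc9, 8 were higher in the library labelled knockout, with a median log2 ratio of 0.53, and their sums were 253 and 185 CPM. The part of vessel cells in the Kcnj8 value was not tested. In sorted cells Kcnj8 was near the limit of detection, at 7.96, 2.90, 1.41, 0.578 and 1.81 CPM with Fezf2 and 0.176, 0 and 2.65 CPM with GFP. Its log2 fold change of 1.72 (SE 1.10) was the largest of the 58 and did not pass. Fezf2 replicate 1 was highest for Kcnj8, while replicates 2, 4 and 5 were highest for the vessel markers. Of 6 such markers tested in sorted cells 5 lay above 0 (median log2 fold change 0.63, none passed), led by the pericyte genes Rgs5 at 1.28 (SE 0.38) and Pdgfrb at 0.95 (SE 0.34, or 20.7 against 10.7 CPM on average). Their part in the sorted Kcnj8 value was not tested.

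Promoter sequences are shown for these genes because they stand furthest apart in the neocortex pair. RefSeq promoter entries (build GRCm38.p6) were found for Kcnn1, Kcnh1 and Kcnj8, each cut here to the 250 bases before a start site. In the lines below, capitals mark GGGCGG, the core of a GC box, and CCAAT, the core of a CCAAT box, on either strand. A match describes letters only.
Kcnh1 promoter, chr1:192190527-192190776, + strand: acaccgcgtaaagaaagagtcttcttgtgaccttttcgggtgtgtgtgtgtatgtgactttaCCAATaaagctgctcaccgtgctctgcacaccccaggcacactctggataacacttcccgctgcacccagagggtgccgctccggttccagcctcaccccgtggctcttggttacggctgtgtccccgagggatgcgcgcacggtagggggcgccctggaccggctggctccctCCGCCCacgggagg
Kcnj8 promoter, chr6:142571615-142571864, - strand: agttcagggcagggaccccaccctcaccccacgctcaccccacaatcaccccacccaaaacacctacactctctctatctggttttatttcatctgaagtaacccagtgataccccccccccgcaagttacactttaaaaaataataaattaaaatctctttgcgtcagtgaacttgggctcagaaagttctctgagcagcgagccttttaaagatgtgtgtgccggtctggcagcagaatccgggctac
Kcnn1 promoter, chr8:70863259-70863508, - strand: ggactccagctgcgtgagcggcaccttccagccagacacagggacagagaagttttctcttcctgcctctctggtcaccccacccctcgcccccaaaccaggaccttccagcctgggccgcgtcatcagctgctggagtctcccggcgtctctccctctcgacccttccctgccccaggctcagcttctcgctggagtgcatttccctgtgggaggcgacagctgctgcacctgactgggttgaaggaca
Kcnn1 promoter, chr8:70857009-70857258, - strand: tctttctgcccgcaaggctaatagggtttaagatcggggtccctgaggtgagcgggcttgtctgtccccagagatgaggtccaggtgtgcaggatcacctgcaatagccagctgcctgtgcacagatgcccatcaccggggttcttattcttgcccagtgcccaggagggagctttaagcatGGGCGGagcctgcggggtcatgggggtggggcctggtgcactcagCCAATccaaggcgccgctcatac
Kcnn1 has 2 start sites in the table. Its upstream window held neither motif, with a GC content of 63.6% and 10 CpG. Its downstream window held 1 of each motif, as did the window of Kcnh1, which had 17 CpG. The Kcnj8 window held neither, had a GC content of 49.2% and 6 CpG. Over all 32851 windows of this length 32.7% held GGGCGG and 33.8% CCAAT. Over the 93 windows of the 68 channel genes matched by symbol the shares were 45.2% and 29.0%, and the median GC content was 58.8% against 52.4%.

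**Figure D5:**
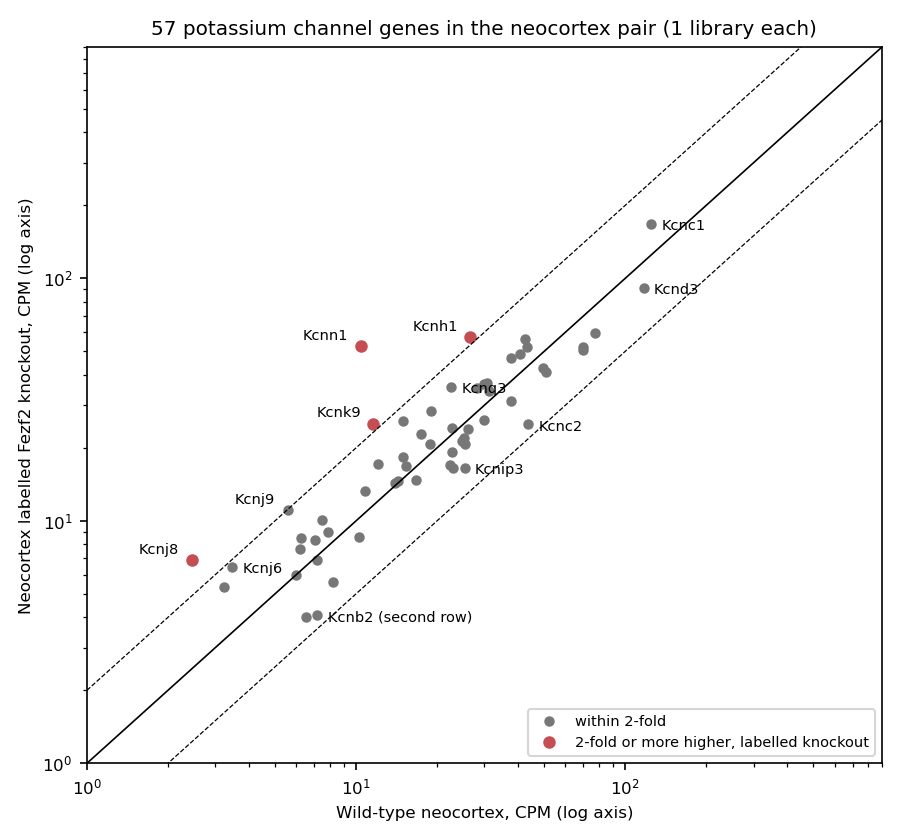
CPM of 57 of the 60 members in the neocortex library labelled knockout against wild type, both on log axes, 1 library each; the solid line marks equal levels and the dashed lines a 2-fold difference. Kcnn1, Kcnj8, Kcnk9 and Kcnh1 lie above the upper line, and no member lies below the lower one.

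Just under the 2-fold limit were the GIRK subunit genes Kcnj9 (log2 ratio 0.98, 11.1 against 5.58 CPM) and Kcnj6 (0.87, 6.44 against 3.47 CPM). Kcnj3, the subunit they assemble with, went the other way at -0.47 (16.52 against 22.9 CPM). Kcnj4 had 0.78, Kcnk12 (THIK-2) 0.70 and Kcnq3 0.67, which completes the 9 members at 1.5-fold or more. All 3 SK genes were above 0, Kcnn2 at 0.58 and Kcnn3 at 0.24, as were all 3 KCNAB genes (median 0.13). Of 8 Kir genes 6 were above 0, with a median of 0.55.

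The 4 members at least 1.5-fold lower were Kcnc2, the separate Kcnb2 row, Kcns2 and Kcnip3. Kcnc2 (Kv3.2), a fast-spiking channel of interneurons and thalamic cells, had 25.0 CPM against 43.7 CPM, a log2 ratio of -0.80 (-0.991 to -0.620). Its relative Kcnc1 was higher, at 168 and 125 CPM with 0.42 (0.335 to 0.517), so the Kv3 genes were split. The Kcnb2 rows had -0.80 and -0.54, and the silent subunit Kcns2, which modifies Kv2, had -0.68. Kcnq5 stood at -0.46 against 0.67 for Kcnq3, both of the Kv7 family. Of the 8 interneuron markers 6 were lower in the library labelled knockout, with a median log2 ratio of -0.21. The 2 higher ones were Npy (228 against 91.5 CPM) and Sst (65.0 against 58.7 CPM). With Npy included, the 8 summed to 802 CPM in the library labelled knockout and 779 CPM in wild type. The part of interneurons in the Kcnc2 value was not tested.

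KCNIP genes were lower in 4 of 4 cases in the library labelled knockout, with a median log2 ratio of -0.24. Kcnip3 had 16.46 CPM against 25.3 CPM (-0.62, interval -0.857 to -0.383), Kcnip1 -0.27, Kcnip2 -0.21 and Kcnip4 -0.20. Kcnd2 stood at 59.5 against 77.0 CPM (-0.37) and Kcnd3 at 91.7 against 117 CPM (-0.35), while Kcnd1 had 0.15. The Kv4 complex has further subunits: Dpp10 had -0.84 (60.6 against 109 CPM) and Dpp6 -0.01. The KCNIP genes and Kcnd2 and Kcnd3 thus lay above 0 with added Fezf2 and below 0 in the library labelled knockout, none of them passing the test in the sorted cells. Radial glia markers lay above 0 with added Fezf2 in 9 of 10 cases and below 0 in the neocortex pair in 7 of 9. For astrocyte markers these were 11 of 11 and 5 of 10. The part of such cells in the KCNIP and Kv4 values was not tested. The comparisons share no library. Over all 55 members present in both, opposite signs were no more common than in other genes: 47.3% of members and 50.0% of 10867 genes. Those higher with Fezf2 and lower in the library labelled knockout were 14 members (25.5%), against 26.1% of genes, and 12 members had the reverse pair of signs.

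Proteins that hold potassium channels in place or modify them were taken as a further list of 20 genes. In the sorted cells 17 were tested, 9 lay above 0 and 8 below, 0 passed, and the median log2 fold change was 0.10. The highest was Lgi1, whose secreted product binds the Kv1 complex, at 0.58 (SE 0.33). In the neocortex pair 7 of 17 were above 0 and 10 below, with a median of -0.16. Cntnap2, which clusters Kv1 channels beside the node, had -0.41. The scaffold genes Dlg1 and Dlg2 had -0.52 and -0.42, while Dlg4 had 0.20 (449 against 391 CPM). Ank3, which anchors Kv7 channels at the axon initial segment, had -0.46. Sptbn4, its spectrin partner, went the other way at 0.38.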

How the data were processed

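RNA was sequenced as single reads of 75 bp on HiSeq 2000, per the labels' protocols, from NuGEN Ovation V2 libraries of sorted cells and TruSeq mRNA libraries of neocortex. The values deposited by the authors are unnormalized counts for each Ensembl gene. HTSeq 0.6.1, STAR 2.4.0e, SAMtools, FastQC, MACS2 2.0.9, Bowtie 0.12.5 and mm9 are named in the submitters' processing notes, with no roles. The sources used here do not give the annotation or strand setting. The deposited RPKM values of the neocortex libraries equalled counts per total and length, which gave the gene lengths behind levels per kilobase. The deposited RPKM of sorted cells were not proportional to the counts and were not used. The ChIP-seq peaks, in mm9, were not used here.

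Sorted groups (5 and 3) were compared with edgeR 4.0.16 in R 4.3.3: filterByExpr, TMM factors and a robust quasi-likelihood fit, with Benjamini-Hochberg adjustment at 0.05. The SE is the log2 fold change over the square root of F. The script was tested on simulated counts. Neocortex log2 ratios use a prior count of 2 and a minimum of 5 CPM in either library. Members and lists were chosen with earlier results of these data known. Named were the 20 members of smallest p, the 2 highest per subfamily, all past 2-fold in neocortex and a fixed set of well-known members; others appear to complete a count or group, or to show a contrast, after their values were seen. Alternatives were DESeq2 1.42.0, RLE factors, no filter, removal of mitochondrially encoded genes, a replicate block, each library left out, and other floors, priors and folds. Genes overlapping a member were read from RefSeq: 9 of 93 matched members overlap a protein-coding gene. Some genes are not reported here; they stay in the fits, counts, medians and sums.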

Additional observations from a re-analysis of the deposited data

Results flagged for a closer look

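Among the 42 named members tested in sorted cells, the highest or lowest of the 5 Fezf2 libraries stood far from the others in 2 cases, by a gap to the nearest library above 0.71 of the group's range. Chance flags about 1 in 20 such groups. Kcnk10 was at 52.9 CPM in Fezf2 replicate 3, a gap of 0.904 of the range. Kcnip2 was at 22.7 CPM in Fezf2 replicate 2, a gap of 0.730 of the range.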

How the results depend on the processing

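The count of members passing in sorted cells was 0 under each alternative but one: with no filter on low counts 2 passed, both higher (Kcnip3, 0.91, edgeR adjusted p = 0.0026, and Kcnj10, 0.76, adjusted p = 0.0213). Under the other alternatives the adjusted p was 0.226 to 0.999 for Kcnip3 and 0.405 to 0.999 for Kcnj10, and Kcnip3 kept an unadjusted p under 0.05 in each. The count over all genes, 2, was 6 with DESeq2, 117 with no filter, 6 with the replicate block, 6 without Fezf2 replicates 4 and 5 together and 1 to 2 with each library left out. Same-numbered libraries did not deviate together (correlations -0.0528, -0.0136 and -0.0450). Whether the numbers pair the samples is not stated, and these correlations cannot decide it. Fezf2 replicates 4 and 5 have no same-numbered GFP library, so with the block the fold change rests on replicates 1 to 3. The block changed no call of a member, but the sign of Kcnv1 (-0.077), Kcnab1 (0.44), Kcnj10 (-0.033), Kcnh1 (-0.20), Kcnt1 (0.058) and Kcnc1 (-0.0027). Without replicates 4 and 5 the sign changed for Kcnab1 (0.28), Kcnt1 (0.030) and Kcnc1 (-0.015), and Kcnj13 changed with no filter (-0.00086) and without mitochondrially encoded genes (-0.0042). With each library left out, 11 of 39 reported members changed sign, all far from passing: Kcnab1 -0.43 to 0.31, Kcnab3 -0.33 to 0.066, Kcnc1 -0.080 to 0.10, Kcnf1 -0.29 to 0.22, Kcnh1 -0.32 to 0.40, Kcnj13 -0.48 to 0.24, Kcnk2 -0.11 to 0.17, Kcnmb4 -0.20 to 0.14, Kcnn2 -0.11 to 0.18, Kcnt1 -0.55 to 0.20 and Kcnv1 -0.17 to 0.18. The summed channel level, set against its other versions after seeing the data, kept its direction. In neocortex the members past 2-fold were 7 higher and 5 lower with a 1 CPM minimum, and 9 and 4 at 1.5-fold. The cause of these changes was not tested, apart from the wider rules by construction. The median SE of 0.387 sets what could be seen in sorted cells.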

Other observations

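Other ion channel genes were examined beside the potassium channels. In the sorted cells no sodium, calcium or HCN channel gene and no KCTD gene passed the edgeR test, with 2 of 15 calcium channel genes higher and 1 of 16 KCTD genes lower at an unadjusted p under 0.05, where 4.31% of all genes were higher and 2.24% lower. Median log2 fold changes were 0.17 for 9 sodium channel genes, 0.10 for 15 calcium channel genes, -0.19 for 4 HCN genes and -0.01 for 16 KCTD genes. Kctd2, a protein of the KCTD family that shares its tetramerisation domain with Kv channels, stood at 20.1, 17.7, 39.5, 30.9 and 38.2 CPM with Fezf2 and 39.7, 49.7 and 51.9 CPM with GFP. All Fezf2 libraries lay below all GFP libraries, and the log2 fold change was -0.68 (SE 0.27; edgeR gave an adjusted p of 0.729).

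In the neocortex pair, sodium channel genes were lower in the library labelled knockout in 6 of 7 cases, with a median log2 ratio of -0.41. Scn1a, the sodium channel best known from fast-spiking interneurons, had 32.1 CPM against 70.7 CPM (-1.13, counting interval -1.29 to -0.983), and Scn3a, the main embryonic form, -0.60. All 4 HCN genes, which carry the hyperpolarisation-activated current, were above 0, with a median of 0.34 and Hcn4 highest at 0.39. Kctd4 stood at 11.4 CPM against 23.2 CPM (-1.02), and the calcium channel beta subunit gene Cacnb4 at 38.9 against 69.6 CPM (-0.84). These values rest on 1 library per label and have no replicate check.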
